A study of Mus musculus with 8 samples.

Results

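The genes described here are 10 genes of intestinal mucus and of the goblet cells that make it: Muc2, Fcgbp, Clca1, Zg16, Tff3, Agr2, Klk1, Spdef, Spink4 and Muc13. They were chosen by symbol, and all 10 were found among the 32285 genes counted in every library. The study measured RNA in mouse intestine of C57BL/6 background, in 8 libraries. Per the labels, 2 single-cell libraries came from small intestinal organoids at passage 1, grown alone (control) or in coculture, with 16 wells pooled and 100000 epithelial cells sorted for each. A further pair of single-cell libraries came from digested small and large intestine of C57BL/6 and Lgr5-eGFP-ires-CreERT2 mice, where sorting enriched LGR5-positive stem cells and CD31, PDPN and LYVE1 triple-positive lymphatic endothelial cells. The other 4 were Visium libraries, in which spots on a slide capture RNA from 10 µm tissue sections, with 2 sections of small and 2 of large intestine. Their titles begin with WT, read here as wild type. The cells added to the coculture, the age and sex of the mice and the number of animals per library are not given in the sources used here.

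Each single-cell group was 1 library, and the labels call each pair of sections technical duplicates, so no test between conditions was possible and none was made. Values are unique molecular identifiers (UMIs, each standing for 1 captured RNA molecule) summed over cells and given as CPM, UMIs per 1000000 UMIs of the same cells or spots. Intervals in the text are 95% counting intervals and do not cover differences between animals. The deposited matrices held 46236011 to 142501907 UMIs per single-cell library and 24356162 to 43833127 per section. The small intestinal library stood apart in RNA quality. Of its 8842 barcodes, 5497 had more than 20% mitochondrial UMIs, against 2060 of 8646 in the large intestine. After filtering, 2695 small intestinal cells, 5882 large intestinal cells, 538 control and 1028 cocultured organoid cells were kept. The tissue libraries shared 25 barcodes and the organoid libraries 0.

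Goblet cells are secretory epithelial cells that release mucus over the gut surface. Muc2 is the gel-forming mucin that makes up the body of that mucus, and it is folded and joined into polymers in the endoplasmic reticulum before it is packed into granules. Fcgbp (an IgG Fc-binding protein with von Willebrand domains), Clca1 (a secreted metalloprotease that processes mucus) and Zg16 (a lectin that binds Gram-positive bacteria) are released with it. Tff3 is a trefoil peptide of mucosal repair, Klk1 is tissue kallikrein, a serine protease, and Spink4 is a small peptide of the Kazal protease inhibitor family. Agr2 is a protein disulfide isomerase of the endoplasmic reticulum needed for Muc2 production. Spdef is an ETS-family transcription factor of goblet and Paneth cell maturation. Muc13 is a membrane-bound mucin of the epithelial cell surface.

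The genes lie on several chromosomes of the mouse genome (RefSeq, GRCm38). Muc2 spans 141690340 to 141754691 on chromosome 7, which also holds Fcgbp, Zg16 and Klk1, and Tff3 and Spdef are on chromosome 17. A RefSeq table of promoters held 6 of the 10 genes (Muc2, Fcgbp, Agr2, Klk1, Spdef and Muc13) in 7 entries, since Muc13 had 2. Clca1, Zg16, Tff3 and Spink4 had no entry. The 250 bases before the start were searched for CAGCTG, an E-box of the kind bound by basic helix-loop-helix factors such as Atoh1, the master regulator of the secretory lineage. These letters read the same on both strands. They were present in 2 of the 7 entries, those of Muc2 and Fcgbp, against 4271 of 32851 promoters of the same length in the table. A forkhead motif, TGTTTAC or GTAAACA on the other strand, was present in 0 of the 7, against 3.17% of all promoters. The sequences of Muc2 and Fcgbp are shown with that of Agr2, which, like Klk1, Spdef and Muc13, did not hold these letters. No link between the letters and RNA levels was tested. The E-box is in capitals. It starts 112 bases before the start of Muc2 and 208 bases before that of Fcgbp. Each is on the plus strand and printed 5′ to 3′, from chr7:141690090-141690339, chr7:28070986-28071235 and chr12:35992675-35992924.
Muc2: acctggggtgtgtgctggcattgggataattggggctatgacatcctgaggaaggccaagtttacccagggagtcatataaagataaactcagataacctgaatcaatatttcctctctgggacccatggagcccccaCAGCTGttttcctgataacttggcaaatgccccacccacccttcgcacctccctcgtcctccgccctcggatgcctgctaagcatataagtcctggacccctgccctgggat
Fcgbp: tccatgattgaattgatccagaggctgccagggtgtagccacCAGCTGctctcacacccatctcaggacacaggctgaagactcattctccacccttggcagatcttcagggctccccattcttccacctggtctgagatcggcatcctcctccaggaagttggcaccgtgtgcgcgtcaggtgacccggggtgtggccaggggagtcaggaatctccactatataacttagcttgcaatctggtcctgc
Agr2: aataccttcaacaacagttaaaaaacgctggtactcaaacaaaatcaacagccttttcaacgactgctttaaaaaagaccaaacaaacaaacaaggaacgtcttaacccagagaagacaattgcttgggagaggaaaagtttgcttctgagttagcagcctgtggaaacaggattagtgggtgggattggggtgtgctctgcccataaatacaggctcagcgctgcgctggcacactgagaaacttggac

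In the small intestine, all 10 genes were at their highest in goblet-like cells among the 16 named cell classes with at least 20 cells. In the large intestine this held for 9 of 10 among 14 classes. The exception was Muc13, at 730 CPM in colonocyte-like and 692 CPM in goblet-like cells. Goblet-like cells were named from 12 other goblet markers (such as Fer1l6, Rep15 and Tpsg1), and the 10 genes were used neither for clustering nor for naming. There were 223 goblet-like cells in the small and 694 in the large intestinal library, with 5180504 and 17936673 UMIs. All 12 markers were detected in both, at a summed 3817 and 3767 CPM. The 10 genes together took 19.7% of the UMIs of goblet-like cells in the small intestine and 8.60% in the large. Over all cells deposited they took 1.71% and 2.64%.

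**Figure D1:**
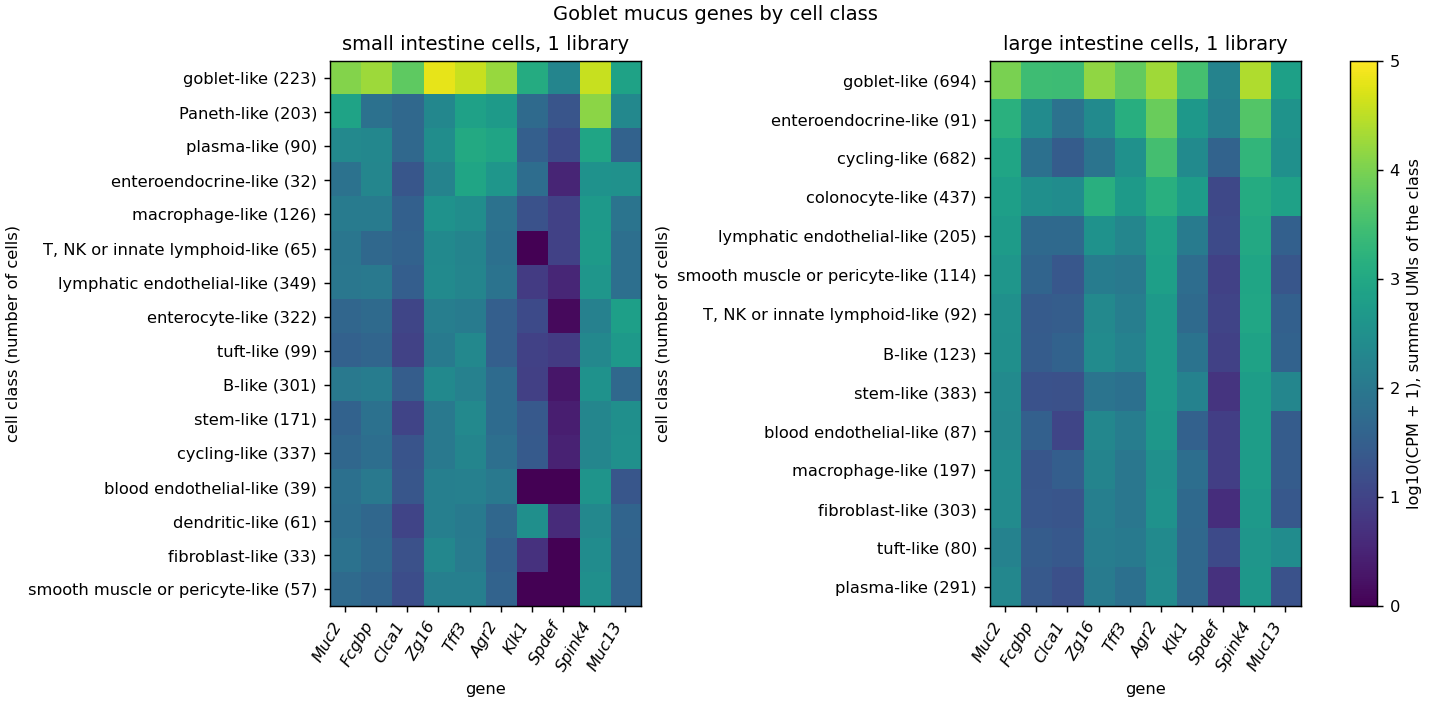
Level of each goblet mucus gene (columns) in each named cell class (rows, number of cells in brackets) of the small and large intestinal single-cell libraries, as log10(CPM + 1) of the class's summed UMIs. Goblet-like cells form the brightest row in both; Spink4 is also bright in small intestinal Paneth-like cells, and Agr2 in large intestinal enteroendocrine-like cells.

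The genes differed in how far goblet-like cells stood above the next class. In the small intestine Zg16 was at 65523 CPM in goblet-like cells and at 351 CPM in macrophage-like cells, the next class, a log2 ratio of 7.54 (7.35 to 7.75). Clca1 and Fcgbp followed, with log2 ratios of 6.86 and 6.46 over the next class. Spink4 was at 38372 CPM in goblet-like and 13235 CPM in Paneth-like cells, a log2 ratio of 1.54 (1.53 to 1.55). Paneth cells are the antimicrobial secretory cells of the small intestinal crypt base, and this class held 120603 Spink4 UMIs in 203 cells. Muc2 was next highest in the same class, at 785 CPM against 11590 CPM in goblet-like cells. Muc13 set goblet-like cells apart least, at 767 CPM against 655 CPM in enterocyte-like and 508 CPM in tuft-like cells. Goblet-like cells held 98.0% of the library's Zg16 UMIs, 86.5% of its Muc2 UMIs, 60.5% of its Spink4 UMIs and 20.1% of its Muc13 UMIs.

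Large intestinal enteroendocrine-like cells, the hormone-making secretory cells, carried several of the genes. Among the 91 cells of that class Spdef was at 145 CPM, against 168 CPM in goblet-like cells, a log2 ratio of 0.21 (0.04 to 0.39). Agr2 was at 7251 CPM there, against 19762 CPM. Muc2, Tff3 and Spink4 also had enteroendocrine-like cells as the next class, at 1465, 1334 and 4590 CPM. The 12 goblet markers summed to 1099 CPM in that class, against 364 CPM in tuft-like and 234 CPM in stem-like cells, and their part in these levels was not tested. The goblet-like class left out unnamed clusters, which held 57.3% of the library's Spdef UMIs and 47.8% of its Agr2 UMIs. Large intestinal cluster 5, unnamed, scored as goblet. Its median cell gave 0.0394% of UMIs to Spdef, against 0.0138% in goblet-like cells. In small intestinal enteroendocrine-like cells, 32 in number, Agr2 was at 421 CPM and Tff3 at 871 CPM. Colonocyte-like cells were the next class in the large intestine for Zg16 (1443 CPM), Fcgbp (314 CPM), Clca1 (267 CPM) and Klk1 (573 CPM). After thinning to 2000 UMIs, 33.9% of colonocyte-like cells held a Zg16 UMI, against 40.2% of B-like cells, and 10.97% and 10.7% held Fcgbp and Clca1, so the sums of these 3 genes lay unevenly over the cells. Goblet markers summed to 850 and 498 CPM in the 2 colonocyte-like clusters. Klk1 had another unlike class in the small intestine. Dendritic-like cells, 61 in number, were at 312 CPM (270 to 359), against 16.9 CPM in macrophage-like and 7.83 CPM in B-like cells. Nearly all of it came from cluster 22, with 192 Klk1 UMIs in 16 cells (1649 CPM), of which 13 held at least 1. Cluster 17, the other dendritic-like cluster, had 3 UMIs in 45 cells. Cluster 22 was led by Siglech, and Klk1b27, a relative of Klk1, was among its 10 leading genes. Mouse Klk1 has near-identical family copies, so reads may have been split or lost among them.

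UMIs of the genes were also found in cells not known to make mucus. Free RNA in the droplets and doublets that were not removed can both give such UMIs, and their parts were not tested. After each cell was thinned to 2000 UMIs, 52.0% of small intestinal and 80.4% of large intestinal B-like cells held a Spink4 UMI. For Zg16 the thinned shares were 37.7% and 40.2% in B-like cells, and 50.5% and 49.6% before thinning. Zg16 was found in 80.4% of 214 thinned small intestinal goblet-like cells, and in 47.3% of 673 large intestinal ones. The latter lies close to the B-like share. Before thinning the goblet-like shares were 98.7% and 93.7%. The median depth was 2802 and 2644 UMIs in B-like cells and 25451 and 26470 in goblet-like cells. Over the immune, stromal and endothelial classes, Muc2 ranged from 51.8 to 223 CPM in the small intestine and from 205 to 550 CPM in the large. These levels were far below those of goblet-like cells. They were not even between classes: small intestinal plasma-like cells had Agr2 at 44.8% and Tff3 at 26.7% of the level over the whole library, and B-like cells at 2.95% and 3.86%. Few plasma-like cells carried this, since after thinning 5.56% held an Agr2 UMI and 17.8% a Tff3 UMI, against 9.16% and 27.8% of B-like cells.

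RNA of Fcgbp, Tff3, Zg16 and Clca1 was higher in small than in large intestinal goblet-like cells, and that of Klk1 lower. Of the 10 genes, 4 were at least 2-fold higher in the small intestine, Fcgbp, Tff3, Zg16 and Clca1, and 1, Klk1, was at least 2-fold lower. Among the 9327 genes with at least 100 UMIs in the 2 groups together, 5.51% were at least 2-fold higher and 9.89% at least 2-fold lower. The median log2 ratio was 0.41 over the 10 genes and -0.09 over all genes. Fcgbp reached 18212 CPM in the small intestine against 2740 CPM in the large, a log2 ratio of 2.73 (2.72 to 2.75). Tff3 was at 38020 and 6405 CPM, a log2 ratio of 2.57 (2.56 to 2.58). Among the 10 genes these had the widest gap between the tissues. Zg16 was at 65523 and 14809 CPM, with a log2 ratio of 2.15 (2.14 to 2.15). Clca1 was at 5645 and 2735 CPM, with a log2 ratio of 1.05 (1.02 to 1.07). It fell under 2-fold, at 0.95, with mitochondrial and ribosomal protein genes left out of the total, which makes the count 3. Klk1 ran the other way, at 1204 and 3360 CPM, with a log2 ratio of -1.48 (-1.52 to -1.44).

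Muc2, Agr2, Spdef and Muc13 were close to level between the tissues. Muc2 reached 11590 CPM in small intestinal goblet-like cells, against 9946 CPM in large intestinal ones, a log2 ratio of 0.22. Agr2 was at 17084 and 19762 CPM, a log2 ratio of -0.21, and Spdef at 186 and 168 CPM, a log2 ratio of 0.15 (0.04 to 0.25). Muc13 had a log2 ratio of 0.15 and Spink4, at 38372 and 25347 CPM, one of 0.60. Which clusters were counted as goblet-like mattered for Muc2 and Spdef. In the large intestine 58.4% of Muc2 UMIs and 57.3% of Spdef UMIs lay in unnamed clusters, against 0.26% and 0.32% in the small intestine. Clusters 5, 11 and 16, of 311, 206 and 154 cells, had the goblet markers as their highest score but failed a naming rule. With them added, a choice made after seeing the data, there were 1365 large intestinal cells in the class. Muc2 then had a log2 ratio of -0.29 and Spdef one of -0.51. Zg16, Fcgbp, Tff3 and Clca1 moved to 2.87, 3.25, 2.97 and 1.70, and Klk1 to -1.43, so the counts of 4 and 1 held.

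**Figure D2:**
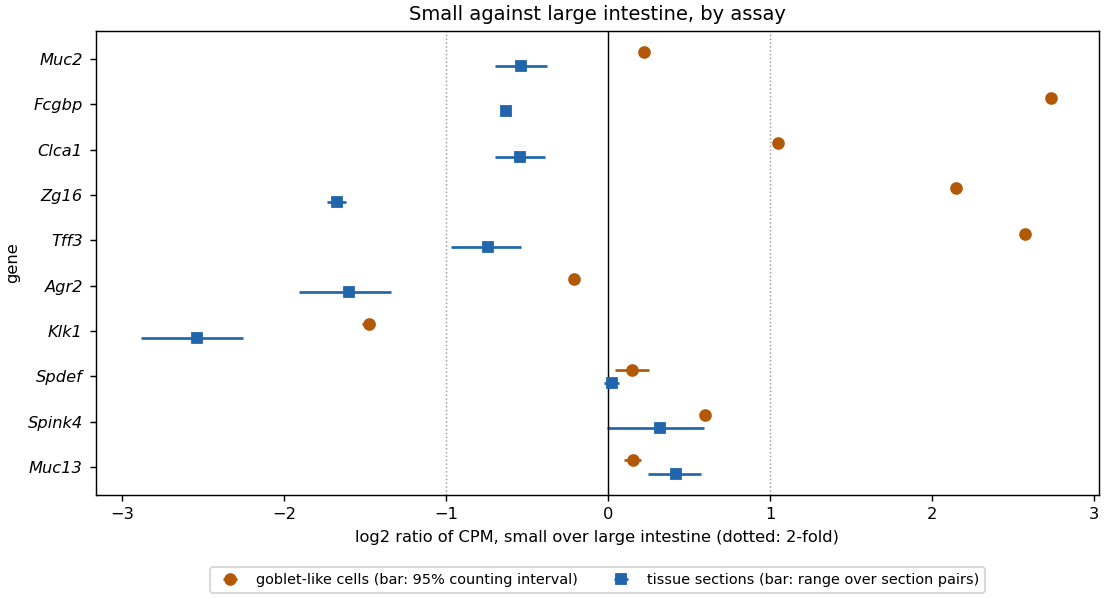
Log2 ratio of CPM, small over large intestine, for each gene (rows). Circles are goblet-like cells with 95% counting intervals, squares are sections with the range over the 4 pairs of sections; Fcgbp, Tff3, Zg16 and Clca1 lie right of 0 in cells and left of 0 in sections, and Klk1 lies left in both.

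Goblet-like cells were not uniform. In the small intestine the share of UMIs taken by the 10 genes ran from 0.647% to 55.1% among the 223 cells, with a median of 15.1%. In the large intestine it ran from 1.23% to 43.1% among the 694 cells, with a median of 6.99%. Zg16 varied widely. It took a median of 2.21% of a small intestinal cell's UMIs, with quartiles at 0.0329% and 8.53% and a highest cell at 41.5%. In the large intestine the median cell gave 0.0148% to Zg16, with quartiles at 0.00724% and 0.356% and a highest cell at 31.1%. As a ratio of its quartiles Agr2 was spread less, with quartiles at 1.27% and 2.39% in the large intestine.

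Within each tissue the genes separated into those that were high together with Zg16 and those that were not. Small intestinal goblet-like cells formed 2 clusters, and large intestinal ones 3, without use of the 10 genes. Small intestinal cluster 16, of 54 cells, gave 40.8% of its UMIs to the 10 genes, and cluster 7, of 169 cells, gave 15.6%. Zg16 was at 224000 CPM in cluster 16 and 35052 CPM in cluster 7. Fcgbp was at 46422 and 12787 CPM, Tff3 at 74637 and 30980 CPM, Clca1 at 12274 and 4370 CPM and Muc2 at 24031 and 9198 CPM. Spink4 ran the other way, at 14089 CPM in cluster 16 and 43040 CPM in cluster 7, a log2 ratio of -1.61 (-1.64 to -1.58). Agr2 did likewise, at 10296 and 18389 CPM, a log2 ratio of -0.84. Spdef, at 175 and 188 CPM, had an interval that spanned 0 (-0.37 to 0.15). Of the 10 genes, 5 were at least 2-fold higher in cluster 16 and 1 was at least 2-fold lower. The 5 include Zg16, whose level ordered the clusters, so the count is given as a description. Of 5035 genes with 100 UMIs or more, 5.06% were at least 2-fold higher and 23.9% at least 2-fold lower. The median log2 ratio over these genes was -0.46, and the values of Agr2 and Spdef are to be read against it.

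In the large intestinal clusters the gap was wider than in the small intestine for Zg16, Fcgbp, Clca1 and Tff3, and narrower for Muc2 and Spink4. The Zg16-poor clusters were unlike. Quartiles of the Zg16 share of a cell's UMIs were 0.0241% and 5.17% in small intestinal cluster 7. They were 0.00527% and 0.0172% in large intestinal cluster 0. The part of this in the gaps was not tested. Cluster 30, of 45 cells, had Zg16 at 71198 CPM, cluster 13, of 196 cells, at 38684 CPM, and cluster 0, of 453 cells, at 404 CPM. Fcgbp was at 12006, 6524 and 434 CPM in these clusters, and Clca1 at 12838, 5973 and 616 CPM. Muc2 differed far less, at 16956, 10216 and 9354 CPM. Agr2 was at 11101, 19725 and 20360 CPM, and Spink4 at 14926, 22256 and 27422 CPM. Between clusters 30 and 0 the log2 ratio was 7.46 for Zg16, 4.79 for Fcgbp, 4.38 for Clca1, 3.53 for Tff3, -0.88 for Agr2 and -0.88 for Spink4. At least 2-fold higher in cluster 30 were 4 of the 10 genes, and 0 were at least 2-fold lower, beside 5.54% and 12.1% of 7908 genes. The median log2 ratio over those 7908 genes was -0.23. Zg16 ordered the clusters and is among the 4, so its own gap and the count are given as a description. Unnamed cluster 5 had Muc2 at 20399 CPM, Agr2 at 29565 CPM and Spdef at 447 CPM, with Zg16 at 768 CPM. Unnamed cluster 11 had Spink4 at 65932 CPM and Muc2 at 18527 CPM.

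**Figure D3:**
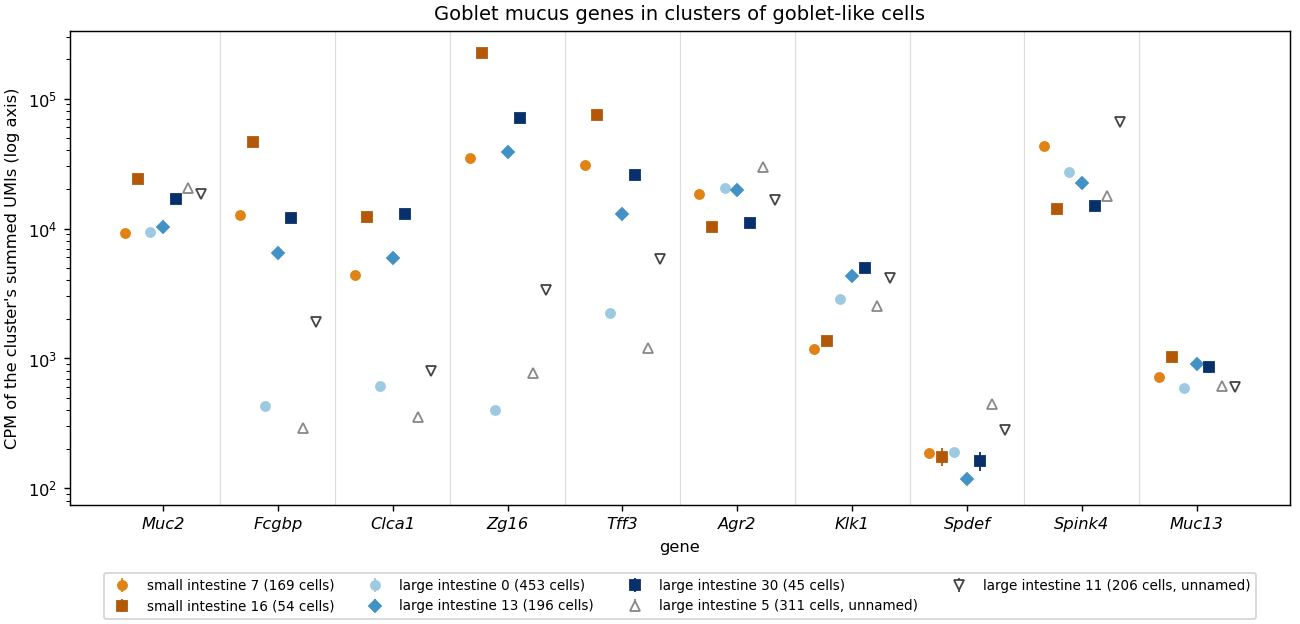
Level of each gene in CPM (log axis) in the clusters of goblet-like cells, with 95% counting intervals; open symbols are large intestinal clusters that scored as goblet but stayed unnamed. Between the large intestinal clusters Zg16, Fcgbp, Clca1 and Tff3 spread widely, while Muc2, Agr2, Klk1 and Muc13 lie within a narrower band; in the small intestine Muc2 (24031 and 9198 CPM) spreads about as much as Tff3 (74637 and 30980 CPM).

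Between the Zg16-rich clusters of the tissues (54 small and 45 large intestinal cells) some genes were nearer to level than over all goblet-like cells. These clusters were picked by their Zg16 level, so the values are a description. Large intestinal cluster 30 was mixed, with quartiles of the Zg16 share of a cell's UMIs at 0.0172% and 10.5%, against 6.06% and 22.0% in small intestinal cluster 16. Clca1 had a log2 ratio, small over large, of -0.06 (-0.10 to -0.03) there, against 1.05 over all goblet-like cells. Fcgbp had a log2 ratio of 1.95, Zg16 of 1.65 and Tff3 of 1.53. Klk1 was at 1362 and 4944 CPM, a log2 ratio of -1.86. Muc2 was at 24031 and 16956 CPM, a log2 ratio of 0.50. Agr2 and Spink4 were within 0.11 of level, with log2 ratios of -0.11 and -0.08.

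Rank correlations between cells, whose values share depth and any free RNA, are given as a description. Over the 223 small intestinal goblet-like cells Zg16 had a Spearman rho of 0.81 with Tff3, 0.78 with Muc2, 0.76 with Fcgbp and 0.64 with Clca1. It had one of 0.09 with Agr2 and -0.20 with Spink4. Over the 694 large intestinal cells Fcgbp and Clca1 had a rho of 0.75 and Fcgbp and Zg16 one of 0.62. Muc2 had a rho of 0.22 with Zg16, 0.19 with Fcgbp, 0.28 with Clca1, -0.21 with Tff3, 0.40 with Klk1 and 0.28 with Spink4 in that tissue. Spink4 had a rho of -0.39 with Tff3 and -0.31 with Fcgbp in the large intestine.

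The genes whose pattern across cell classes was most like the mean of the 10 were Tpsg1, Fer1l6, Galnt5, Hgfac and Atoh1. Likeness was Pearson's r of log2(CPM + 1) over 30 class profiles of the tissue libraries, and r was 0.91, 0.91, 0.90, 0.88 and 0.88. Tpsg1 and Fer1l6 were among the markers that named goblet-like cells. Galnt5 belongs to the enzymes that start O-linked sugar chains. With its own values included in the mean, Muc13 had the lowest r of the 10 genes, 0.55, and Clca1 the highest, 0.94.

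Other genes of goblet cells were taken from 4 lists, whose counts are to be read against the 5.51% of all genes higher and 9.89% lower in the small intestine. Of 9 goblet transcription factors 0 differed 2-fold or more, which is near that background. Klf4 had a log2 ratio of 0.48 and Gfi1 of 0.48, while Foxa2 had one of -0.85 and Foxa1 of -0.57. Of 11 tested genes of mucin glycosylation and folding, 2 were at least 2-fold higher in the small intestine, Txndc5 (1.36) and Ern2 (1.07), and C1galt1 had a log2 ratio of -0.41. B3gnt6, which builds core 3 sugar chains, had 0 UMIs in the small and 188 in the large intestine. With the small intestine set to a floor of 3 UMIs, its log2 ratio was -4.18, with an upper limit of -3.87. In sections it lay the other way, at 4.35 and 6.05 CPM in small and 2.71 and 2.21 CPM in large intestine. Of 4 other mucins tested, the membrane mucins Muc4 (-3.92) and Muc1 (1 UMI against 834) were lower in the small intestine. Muc3a was higher (2.61) and Muc3 had a log2 ratio of 0.51. Muc3 and Muc3a are close copies, so their split is uncertain.

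Of 7 other secreted products, 4 were at least 2-fold lower in small intestinal goblet-like cells and 1 higher. Mptx1, a pentraxin, was at 131 CPM in the small intestine against 33464 CPM in the large, a log2 ratio of -8.00 (-8.11 to -7.89). Wfdc2, a protease inhibitor, was at 2.12 and 151 CPM. Retnlb, a resistin-like antibacterial protein, and Reg4 were the others, with log2 ratios of -4.39 and -1.94. Agr3, a relative of Agr2, was higher, with 101 and 12 UMIs, and the ribonuclease Ang4 had a log2 ratio of 0.94. The median log2 ratio was -1.94 over this list and 0.34 over the glycosylation and folding list.

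In organoids no cluster was goblet-like, and in the coculture most UMIs of every gene but Muc13 lay in the Paneth-like cluster. That cluster held 21 control and 55 cocultured cells. It carried 89.2% of Muc2 UMIs in the control and 97.6% in the coculture, and 92.3% and 96.0% of Spink4 UMIs. In the control the cluster held 34.7% of Zg16 UMIs and 42.5% of Clca1 UMIs, and unnamed cluster 6, of 80 control cells, held 1767 of 2855 Zg16 UMIs, of which 1 cell held 1759. That cluster also held 153 of 374 Clca1 UMIs, and the cell with the most Clca1 in the library held 141. Muc13 was spread over the culture, with 7.95% and 7.65% of its UMIs in that cluster. The 10 genes took 0.268% of deposited UMIs in the control and 0.269% in the coculture. Few cells made up these sums. For Muc2, 4 control and 8 cocultured cells held 50% of the UMIs. Markers of Paneth cells took 23.5% to 32.0% of the UMIs of these 4 control cells, and 0.0239% to 39.2% of those of the 8 cocultured cells. Goblet markers took 0.0319% to 0.185% of the UMIs of the 4 control cells and 0.0624% to 0.428% of those of the 8 cocultured cells. The 10 genes took 4.03% to 10.7% and 3.999% to 36.7%. The cluster named Paneth-like thus held cells with almost no Paneth marker UMIs. Muc2 in Paneth-like cells was at 817 CPM in control organoids, 1216 CPM in cocultured organoids and 785 CPM in tissue. Tff3 was at 11645 and 13430 CPM in organoid Paneth-like cells and at 712 CPM in tissue ones. Fcgbp was at 2645 and 3308 CPM, against 71.8 CPM.

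Over all organoid cells 1 of the 10 genes, Zg16, was at least 2-fold higher in coculture and 0 were at least 2-fold lower. Of 11705 genes, 1.24% were at least 2-fold higher and 2.81% at least 2-fold lower. The median log2 ratio of coculture over control was 0.33 over the 10 genes and -0.10 over all genes. Zg16 was at 190 CPM in coculture and 66.0 CPM in control, a log2 ratio of 1.53 (1.47 to 1.58). In each library 1 cell held most of this, with 62.1% of Zg16 UMIs in coculture and 61.6% in control. With cells weighted equally the log2 ratio of Zg16 was 0.96, under 2-fold. Clca1 was at 14.3 and 8.64 CPM, a log2 ratio of 0.73, and 2 cells held 50% of its UMIs in each library. Spdef was at 3.83 and 2.33 CPM (371 and 101 UMIs), a log2 ratio of 0.71 (0.39 to 1.05). Klk1 had a log2 ratio of 0.59, Agr2 of 0.38 and Muc2 of 0.27.

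The remaining genes were level or lower in coculture. Tff3 was at 747 CPM in coculture and 929 CPM in control, a log2 ratio of -0.31 (-0.33 to -0.30). Muc13 was at 300.1 and 336 CPM, a log2 ratio of -0.16, and Fcgbp at 173 and 186 CPM, a log2 ratio of -0.11. Spink4 was at 971 and 996 CPM, a log2 ratio of -0.04. Paneth-like cells were 21 of 538 control and 55 of 1028 cocultured cells, and the part of this in the levels was not tested. Of the other lists, 0 of 9 transcription factors differed 2-fold in either direction. Among 10 glycosylation and folding genes 0 were higher and 1, Galnt3 (-1.02), was lower. Of 3 other mucins tested, Muc4 was lower (-1.12) and 0 were higher. Of 5 other secreted products tested, Reg4 was higher (2.38) and Wfdc2 lower (-3.97). The list medians were -0.06 for transcription factors, -0.32 for glycosylation and folding, -0.27 for other mucins and 0.51 for other secreted products. With 1.24% and 2.81% of all genes past these limits, lists of this size say little.

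**Figure D4:**
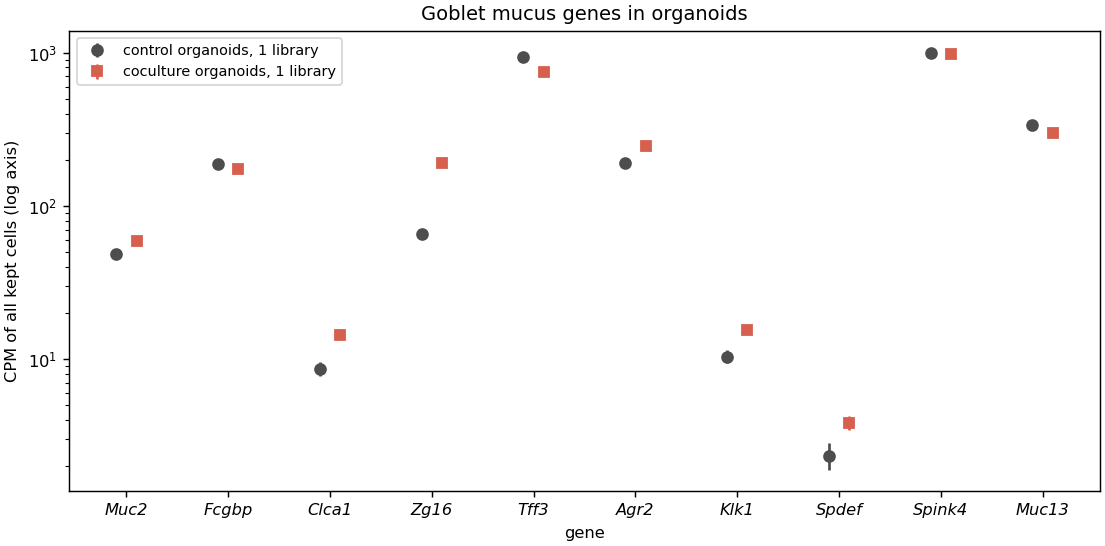
CPM (log axis) of each gene over all kept cells of the control (circles) and cocultured (squares) organoid library, with 95% counting intervals. The pair is widest apart for Zg16 (66.0 and 190 CPM), and Tff3 is the gene with the largest gap in the other direction.

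In tissue sections Zg16, Tff3, Fcgbp and Clca1 were lower in the small intestine, the reverse of their order in goblet-like cells, and Muc2 was lower as well. None of the 10 genes was at least 2-fold higher in the small intestine sections, and 3, Klk1, Zg16 and Agr2, were at least 2-fold higher in the large intestine sections with no overlap between sections. Of 14253 genes, 14.2% met the same rule toward the small and 12.8% toward the large intestine. Zg16 gave 2360 and 2372 CPM in small intestine sections, against 7277 and 7858 CPM in large, a log2 ratio of -1.68. Klk1 gave 205 and 138 CPM against 982 and 1016 CPM, a log2 ratio of -2.54. Agr2 gave 737 and 509 CPM against 1910 and 1868 CPM, a log2 ratio of -1.60. For these genes the gap between the tissues was wider than that between duplicate sections.

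Muc2 gave 2684 and 2375 CPM in small intestine sections, against 3856 and 3485 CPM in large, a log2 ratio of -0.54. Fcgbp gave 2465 and 2445 CPM against 3821 and 3786 CPM, a log2 ratio of -0.63. Tff3 gave 2410 and 1798 CPM against 3531 and 3496 CPM, a log2 ratio of -0.74. Clca1 gave 2882 and 2455 CPM against 3992 and 3785 CPM, a log2 ratio of -0.54. These 4 were lower in both small intestine sections, by less than 2-fold. Muc13 was higher there, at 2466 and 3010 CPM against 2083 and 2022 CPM. Spdef (47.1 and 44.8 against 45.0 and 45.6 CPM) overlapped between the tissues. Spink4 (7997 and 5366 against 5405 and 5312 CPM) overlapped too.

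A section holds all layers of the gut wall, so fewer goblet cells and less RNA per goblet cell cannot be told apart. The 12 goblet markers summed to 347 and 315 CPM in small intestine sections, against 936 and 917 CPM in large. Smooth muscle markers summed to 9879 and 13315 CPM against 2493 and 2451 CPM. Paneth markers, whose cells carried Spink4, summed to 49881 and 27194 CPM against 32.9 and 29.2 CPM. Their part in the section values was not tested. Per UMI of the goblet markers, a measure added after seeing the data, Muc2 gave 7.73 and 7.53 UMIs in small and 4.12 and 3.80 in large intestine sections. Fcgbp gave 7.09 and 7.76 against 4.08 and 4.13, and Clca1 8.30 and 7.79 against 4.26 and 4.13. Zg16 gave 6.79 and 7.53 against 7.77 and 8.57. This scale shifts the log2 ratio of every gene toward the small intestine, by 1.44 to 1.55, so 71.7% of all genes were at least 2-fold higher in small intestine sections on it and 2.39% in large. Of the 10 genes, 3 (Spdef, Spink4 and Muc13) were higher and 1 (Klk1) lower, and the shift alone turns the sign of Muc2, Fcgbp, Clca1 and Tff3.

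Within the sections the genes took different places. Spots, each a small region that can hold several cells, were clustered without the 10 genes, into 9 clusters in the small and 10 in the large intestine. Small intestine cluster 8, of 21 spots, was too small to compare. All 10 genes peaked in the same cluster in both large intestine sections, and 8 of 10 did so in the small intestine. Large intestine cluster 6, led by Retnlb, Dlk1 and Itln1, had the highest Muc2 (10693 and 9872 CPM), Agr2 (4843 and 4979 CPM) and Spink4 (16226 and 16623 CPM). Spdef (139 and 141 CPM) and Klk1 (1528 and 1588 CPM) peaked there as well. Tff3 was at its lowest in that cluster, at 629 and 612 CPM. Large intestine cluster 5, led by the absorptive-cell genes Mal, Tmigd1 and Slc9a3, had the highest Fcgbp (10099 and 10299 CPM), Clca1 (11837 and 11773 CPM) and Zg16 (16377 and 17370 CPM). Cluster 4, led by Acta1, Ifit3b and Clca4b, had the highest Tff3 (7618 and 7012 CPM) and Muc13 (4525 and 4257 CPM), with Zg16 at 16062 and 15692 CPM.

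In the small intestine sections Agr2, Klk1, Spdef and Spink4 again peaked apart from Fcgbp, Clca1 and Zg16. Muc2 peaked in clusters with the latter but was nearly as high in cluster 3, at 2949 and 2932 CPM. Cluster 3, led by the cell-division genes Nek2, Ube2c and Birc5, had the highest Agr2 (1903 and 1704 CPM), Klk1 (305 and 217 CPM) and Spdef (103 and 138 CPM). Cluster 5, led by Defa genes of Paneth cells, had the highest Spink4 (22227 and 19868 CPM), and Zg16 was at its lowest there in section 1 (286 CPM). Paneth markers took 269928 and 205224 CPM in cluster 5. Cluster 4, led by the enterocyte genes Slc28a2, Ada and Apoa4, had the highest Zg16 (4834 and 4475 CPM) and Muc13 (3778 and 4740 CPM). Cluster 1, led by Bhmt, Sis and Slc2a5, had the highest Fcgbp (4128 and 4004 CPM) and Clca1 (3977 and 3612 CPM). Muc2 peaked in cluster 4 in section 1 (3247 CPM) and in cluster 1 in section 2 (3057 CPM). The next was cluster 1 in section 1 (3118 CPM) and cluster 3 in section 2 (2932 CPM). Tff3 also changed places between clusters 4 and 1. Cluster 7, led by the nerve-cell genes Nmu, Gal and Cartpt, was lowest for all 10 genes in section 2 and for all but Zg16 in section 1, with Muc2 at 501 and 438 CPM.

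**Figure D5:**
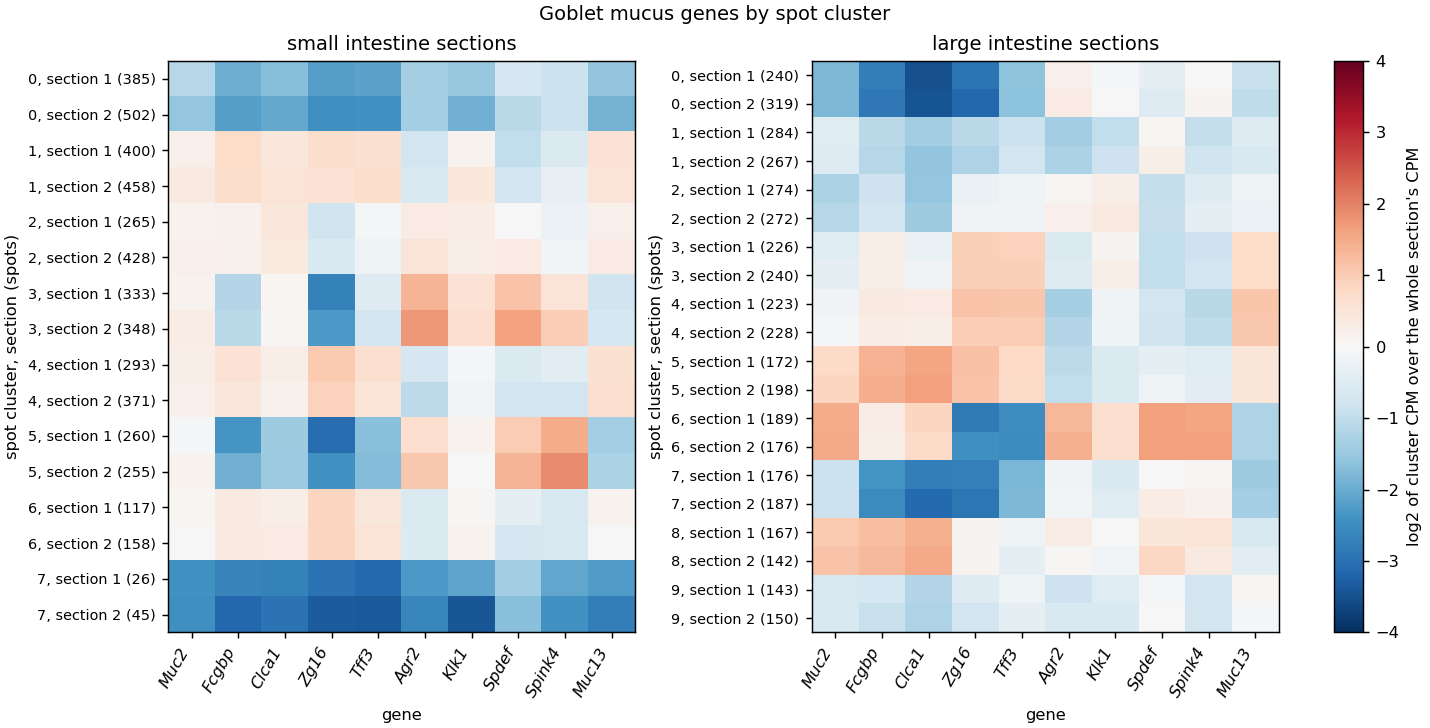
Level of each gene (columns) in each spot cluster and section (rows, number of spots in brackets), as log2 of the cluster's CPM over that of its whole section. In both tissues the clusters rich in Agr2, Spdef and Spink4 (3 and 5 in small, 6 in large) are low in Zg16 and Tff3, and the rows of the 2 sections of a cluster look alike.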

How the data were processed

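The authors deposited raw UMI counts per gene and barcode, made with Cell Ranger 6.0.1 (single cells) and Space Ranger 1.2.1 (sections), per the file headers; the build was mm10, per the submitters' processing notes. Barcodes under 500 genes or over 20% mitochondrial UMIs, spots under 500 UMIs and likely doublets by Scrublet score were removed. Clustering (Scanpy 1.11.5, 2000 variable genes, 30 components, 15 neighbours, Leiden resolution 1, or 0.5 for spots) left out the 10 genes and 4 related lists. Clusters were named by 21 marker lists, and classes under 20 cells were not compared. Ratios of summed UMIs used exact 95% intervals and a floor of 3 UMIs, and were tried on simulated data. The simulated counts were Poisson, as the intervals assume, so spread between cells, animals or libraries was not covered. The 10 genes and the lists were chosen with earlier results of these data known. Beyond the 10, the text names the 5 genes most like their mean with at least 100 UMIs, and from each list the 2 highest and 2 lowest tissue ratios; other names were chosen after their values were seen. Positions of spots were not used here. Alternatives covered scaling, filters, doublets and clustering.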

Additional observations from a re-analysis of the deposited data

Results flagged for a closer look

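In 5 genes the small intestine was above the large in goblet-like cells but below it in every pair of sections. The log2 ratios in goblet-like cells and sections were 2.15 and -1.68 for Zg16, 2.57 and -0.74 for Tff3, and 2.73 and -0.63 for Fcgbp. They were 1.05 and -0.54 for Clca1, and 0.22 and -0.54 for Muc2. For Muc2 the order in cells rests on which clusters are counted as goblet-like, since its log2 ratio was -0.29 with the widened class. The difference between the assays was not tested, since each tissue had 1 single-cell library. No group had the 4 samples needed to look for a sample far from the others.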

How the results depend on the processing

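Of the 10 counts of genes, 7 stayed within 1.5 times their value under every alternative. The count 2-fold higher in coculture went from 1 to 0 with cells weighted equally. Per goblet marker UMI, an added alternative, the counts in sections were 3 toward the small and 1 toward the large intestine. On that scale Muc2 (0.95), Fcgbp (0.85), Clca1 (0.94) and Tff3 (0.74) changed sign, as follows from the scale's own shift of about 1.49 in every gene. With the widened goblet-like class, Muc2 (-0.29) and Spdef (-0.51) changed sign. Among organoid ratios, Spink4 changed sign under median scaling (0.061), equal cell weights (0.38), the loose filter (0.011) and without the top cell (0.073), and Fcgbp did under equal weights (0.0025). Alternatives moved 87 of 120 goblet-like ratios beyond their counting intervals, which are narrow. Leaving out each section in turn gave 0 and 3 throughout. The cause of these shifts was not tested. No paired analysis was possible because the duplicate sections of one tissue have no partner in the other.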

Other observations

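Other products of goblet cells also differed in direction between goblet-like cells and sections. Reg4, a secreted lectin, had a log2 ratio, small over large, of -1.94 in goblet-like cells and 1.61 in sections, where it was at 654 and 473 CPM in small and 188 and 180 CPM in large. Lypd8, an antibacterial protein of the colon surface, had one of 0.45 in goblet-like cells and -2.93 in sections. Mptx1 and Wfdc2 were lower in the small intestine in both, with section log2 ratios of -6.23 and -7.84. Retnlb was lower in both as well, at -4.39 and -1.19.

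Between the Zg16-rich and Zg16-poor goblet-like clusters, 1 goblet transcription factor was at least 2-fold higher and 1 at least 2-fold lower, of 8 tested in small and 9 in large intestine. Of all genes tested, 5.06% and 5.54% were that much higher and 23.9% and 12.1% lower. The median log2 ratio over all genes tested was -0.46 in small and -0.23 in large intestine. The clusters were picked by Zg16, and the genes here were named after their values were seen. Klf4 was at 973 and 394 CPM in small and 1087 and 172 CPM in large intestine, log2 ratios of 1.31 and 2.66. Creb3l1, a factor of secretory capacity, was at 163 and 361 CPM in small and 203 and 454 CPM in large, log2 ratios of -1.15 and -1.16. Atoh1 was near level, at 0.03 and 0.23. Lypd8 was higher in the Zg16-rich clusters, by 1.35 and 1.93, and Retnlb lower, at -4.20 and -2.14.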
